A study of Homo sapiens with 15 samples.

Results

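Cells of U2OS, a human osteosarcoma line, were compared between the gates that were copying DNA and the gates that were not. The 2 replicating gates, Early_S and Late_S, were set against the 2 gap gates, G1 and G2. The members were 12 of the 15 libraries in the series: 3 from Early_S, 3 from Late_S, 3 from G1 and 3 from G2, chosen by the gate in their labels. The remaining 3 libraries, No_alkylation, left out the chemical step that makes labelled RNA readable, and the labels do not say which gate their cells came from.

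All groups were U2OS cells, a single line, grown in DMEM with serum and given 4-thiouridine and EdU together for 45 minutes. The labels name no other treatment and no genetic change, so the gate was the labelled difference between the groups. The cells were then fixed with glyoxal and methanol, stained for EdU and DNA content and flow sorted. From the sorted cells, 500 ng of RNA went into a 3' end library. The protocol describes asynchronous cultures parted by sorting, while the series title calls the cells synchronised. It names the last gate G2/M. The labels do not say whether the 3 libraries of a gate came from separate cultures, so every p-value here measures the spread between these libraries.

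During S phase a cell duplicates its genome, and it needs deoxynucleotides, replication fork proteins and new histones to do so. G1, before it, is when origins of replication are licensed, and G2, after it, is when mitotic genes are expressed at their highest. The 2 gap phases differ this much and were averaged, so a gene could stand out from their mean without standing out from each of them. In SLAM-seq, 4-thiouridine built into new RNA is alkylated and then read as a T-to-C conversion, and reads with a conversion are called T>C reads. The steady-state level of a gene was taken from all of its reads and its nascent level from the T>C reads. Its labelled share was the percent of its reads that carried a conversion.

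The 12 libraries held 16096695 to 21803972 reads, of which 1812606 to 4037464 carried a T-to-C conversion, and reads had no molecular identifiers. The T>C read share was 14.2% ± 4.60 in the S gates and 16.2% ± 6.70 in the gap gates (SD, n = 6 each; exact permutation test, two-sided, p = 0.55, adjusted over 4 library measures 0.66). By gate it was 18.4% in Early_S and 10.0% in Late_S, against 22.3% in G1 and 10.1% in G2, and it was 1.00% to 1.03% in No_alkylation. The conversion rate, counted over T positions that reads covered and given in percent, was 1.82 ± 0.584 in the S gates and 1.90 ± 0.686 in the gap gates (exact permutation p = 0.66, adjusted 0.66). Reads falling in the annotated 3' end regions were 68.9% ± 0.433 in the S gates and 66.2% ± 1.54 in the gap gates, with no overlap (exact permutation p = 0.00216, the smallest that 924 assignments can give, adjusted 0.00866). Multimapped reads were 11.7% ± 0.428 in the S gates and 11.2% ± 0.113 in the gap gates (exact permutation p = 0.026, adjusted 0.0519), with Early_S the highest gate at 12.04%. The part of the region share in the gene results was not tested. Markers of the osteoblast lineage summed to 2443 to 3009 CPM in the S gates and 2337 to 2656 CPM in the gap gates, most of it from COL1A1, with IBSP and TWIST1 at 0. Blood cell markers summed to 4.52 to 7.24 CPM in the S gates and 5.28 to 9.17 CPM in the gap gates, with CD3E, LYZ and HBB at 0. Epithelial markers, led by KRT8, summed to 1357 to 1644 CPM in the S gates and 1270.0 to 1958 CPM in the gap gates.

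**Figure D1:**
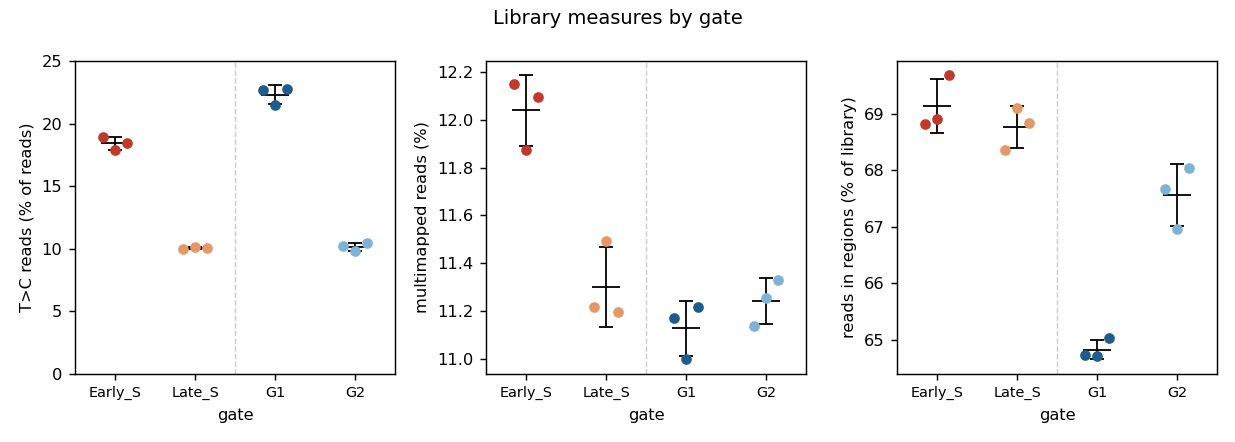
Each point is 1 library; the 3 panels give the percent of reads with a T-to-C conversion, the percent of multimapped reads and the percent of reads in the annotated regions, by gate, with the mean ± SD of 3 libraries; the axes of the last 2 panels do not start at 0. The T>C share separated Early_S and G1 from Late_S and G2, not the S gates from the gap gates, while the percent of reads in the regions was higher in all 6 S libraries than in all 6 gap libraries.

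CCNB1 and CDKN1A, 2 standard phase genes, set G1 and G2 apart as labelled. Not every phase gene set the S gates apart. The S against gap log2 differences of CCNE1 (-0.07), CCNE2 (-0.07), CCNA2 (-0.03) and PLK1 (-0.04) did not pass the test named below. RRM1 and TYMS were higher in the S gates and PCNA and SLBP lower, as given below. CCNB1, which encodes cyclin B1 and peaks before mitosis, had 205, 219 and 237 CPM in Early_S and 263, 275 and 239 CPM in Late_S, against 115, 128 and 149 CPM in G1 and 335, 346 and 353 CPM in G2. Its G2 libraries were the highest and its G1 libraries the lowest, and the S gates lay between them. CDKN1A, the CDK inhibitor p21, ran the other way, with 448, 419.9 and 422 CPM in Early_S and 197, 169.6 and 203 CPM in Late_S, against 714, 641 and 691 CPM in G1 and 162, 131 and 155 CPM in G2. Its G1 libraries were the highest and its G2 libraries the lowest. The S against gap difference of both genes lay just outside the threshold (adjusted p = 0.0576 for CCNB1 and 0.0519 for CDKN1A, edgeR's quasi-likelihood test with Benjamini-Hochberg adjustment over all genes tested), and it passed under 5 alternative settings for CCNB1 and 10 for CDKN1A.

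At steady state, 2277 of 13755 genes tested (16.6%) passed that test between the S and the gap gates at an adjusted p under 0.05, the threshold for every call below. Of these, 1155 were higher in the S gates (8.4%) and 1122 were lower (8.16%). The median size of a called difference was 0.427 on the log2 scale, and 205 of the called genes differed by more than 1 on that scale. A gene was counted as high in both S gates when it was called and its fitted level was above both G1 and G2 in Early_S and in Late_S alike, and as low in both when it was below in all 4 pairs. By that definition, chosen after the counts of a stricter one had been seen, 842 genes were high in both S gates (6.12%) and 700 were low in both (5.09%), and the other 735 called genes had at least 1 pair on the opposite side. Without genes over 20% multimapped reads, 818 were high and 670 low in both. The stricter definition, under which all 4 pairwise differences had to pass together, left GPT2 and NUPR1 on the high side (0.0145%) and PTTG1 on the low side (0.00727%). At an unadjusted p under 0.05 in each of the 4 pairs, 123 genes were high (0.894%) and 67 were low (0.487%). In 167 genes (1.21%) all 6 S libraries lay above all 6 gap libraries, and 159 of these were called (1.16%). In 94 genes (0.683%) all 6 lay below, and 85 of these were called (0.618%).

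Early_S and G1 were the extreme gates for most called genes. Of the 1155 higher genes, 863 had their highest mean in Early_S and 216 in Late_S, and 907 had their lowest mean in G1. Of the 1122 lower genes, 842 were lowest in Early_S and 219 in Late_S, and 774 were highest in G1. Taken pair by pair, 3348 genes were called between Early_S and G1 (24.3%), 2660 between Early_S and G2 (19.3%) and 2739 between Late_S and G1 (19.9%), but 20 between Late_S and G2 (0.145%). Among the 842 genes high in both S gates, the median difference was 0.69 for Early_S against G1, 0.40 for Early_S against G2, 0.50 for Late_S against G1 and 0.21 for Late_S against G2. For the 700 genes low in both, the same medians were -0.69, -0.48, -0.40 and -0.23. The definition set the signs of these medians, so they are no evidence of a difference in any 1 pair. Of the 1155 higher genes, 8 were also called higher in Late_S against G2, and of the 1122 lower genes, 4 were called lower there. The pairs Late_S against G1 and Early_S against G2 share no library, so their calls came from separate measurements. Late_S against G1 called 1471 genes higher (10.7%) and 1268 lower (9.22%), and Early_S against G2 called 1232 higher (8.96%) and 1428 lower (10.4%). They shared 170 higher genes, which is 11.6% of the first list and 13.8% of the second, and 110 lower genes, 8.68% and 7.70%. A further 365 genes called higher in the first were called lower in the second. With the gates pooled into 2 groups with no term for phase, so that a gene had to exceed the spread between gates on the same side as well, 77 genes were called higher and 38 lower. Of the genes described below at steady state, ATF4, GPT2, NUPR1, PSPH, MTHFD2, AARS, MARS, RRM1, ASF1B, H2AFY2, STMN1, ENO1, NR4A1, MT2A, NTN1 and BTN2A2 were called higher in that fit too. PTTG1, HMGCS1, NSDHL, HSPA4, MSH6, HIST2H2BE, ANTXR2, CLCN2 and EBAG9 were called lower in it, and the others lost their call.

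**Figure D2:**
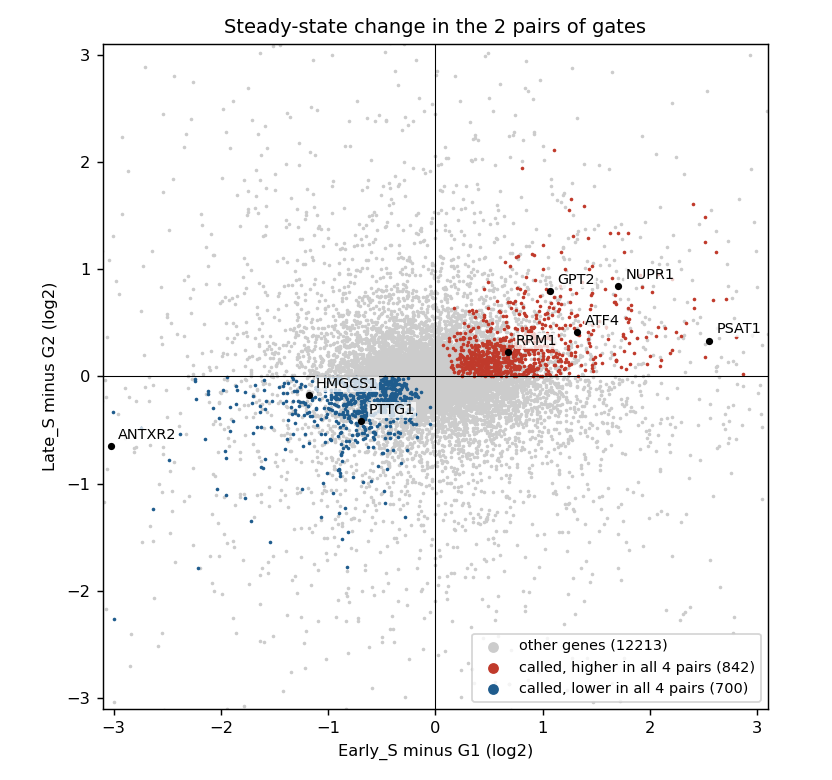
Each point is a gene tested at steady state; the x axis is the log2 difference of Early_S against G1 and the y axis that of Late_S against G2, which share no library; 463 genes lie beyond 3 on either axis and most fall outside the frame. Genes high in both S gates (842, red) and low in both (700, blue) spread further along the Early_S axis than along the Late_S axis, with medians of 0.69 and 0.21 on the high side. The signs of these medians were set by the definition.

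GPT2, NUPR1 and PTTG1 differed in the same direction in each of the 4 pairs of gates. GPT2 (chr16:46928998-46931297, plus strand on hg38), a mitochondrial enzyme that makes alanine and 2-oxoglutarate from pyruvate and glutamate, had 165, 157 and 186 CPM in Early_S and 136, 138 and 142 CPM in Late_S, against 82.5, 79.8 and 79.4 CPM in G1 and 77.5, 73.8 and 88.2 CPM in G2. Its 6 S libraries all lay above its 6 gap libraries, and G1 and G2 were alike. The difference was 0.93 ± 0.07 on the log2 scale (SE; adjusted p = 8.53e-13), with 1.07 and 1.08 for Early_S against G1 and G2 and 0.78 and 0.80 for Late_S against G1 and G2. NUPR1 (chr16:28532708-28537669, minus strand), a small stress-induced chromatin protein, had 131, 101 and 125 CPM in Early_S and 80.4, 57.5 and 73.5 CPM in Late_S, against 46.2, 23.4 and 40.2 CPM in G1 and 36.8, 35.4 and 45.4 CPM in G2. All its S libraries lay above its gap libraries, Early_S above Late_S, and the difference was 1.27 ± 0.12 (adjusted p = 8.21e-11). PTTG1 (chr5:160428682-160428744, plus strand), the securin that holds separase inactive until anaphase, had 256, 249 and 221 CPM in Early_S and 248, 292 and 274 CPM in Late_S, against 387, 399.5 and 385 CPM in G1 and 379, 356 and 353 CPM in G2. Every S library lay below every gap library, with a difference of -0.55 ± 0.06 (adjusted p = 6.59e-10). Its pairwise differences ran from -0.69 for Early_S against G1 to -0.42 for Late_S against G2. All 3 genes kept their call in the S against gap comparison under every alternative tried. The stricter definition leaned on single libraries: it left 1 gene on the high side without Early_S replicate 3, Late_S replicate 1, Late_S replicate 3 or G2 replicate 2, 5 genes without G1 replicate 2 and 2 or 3 without the others. PTTG1 did not meet it without Late_S replicate 1, Late_S replicate 3 or any one of the G2 replicates.

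**Figure D3:**
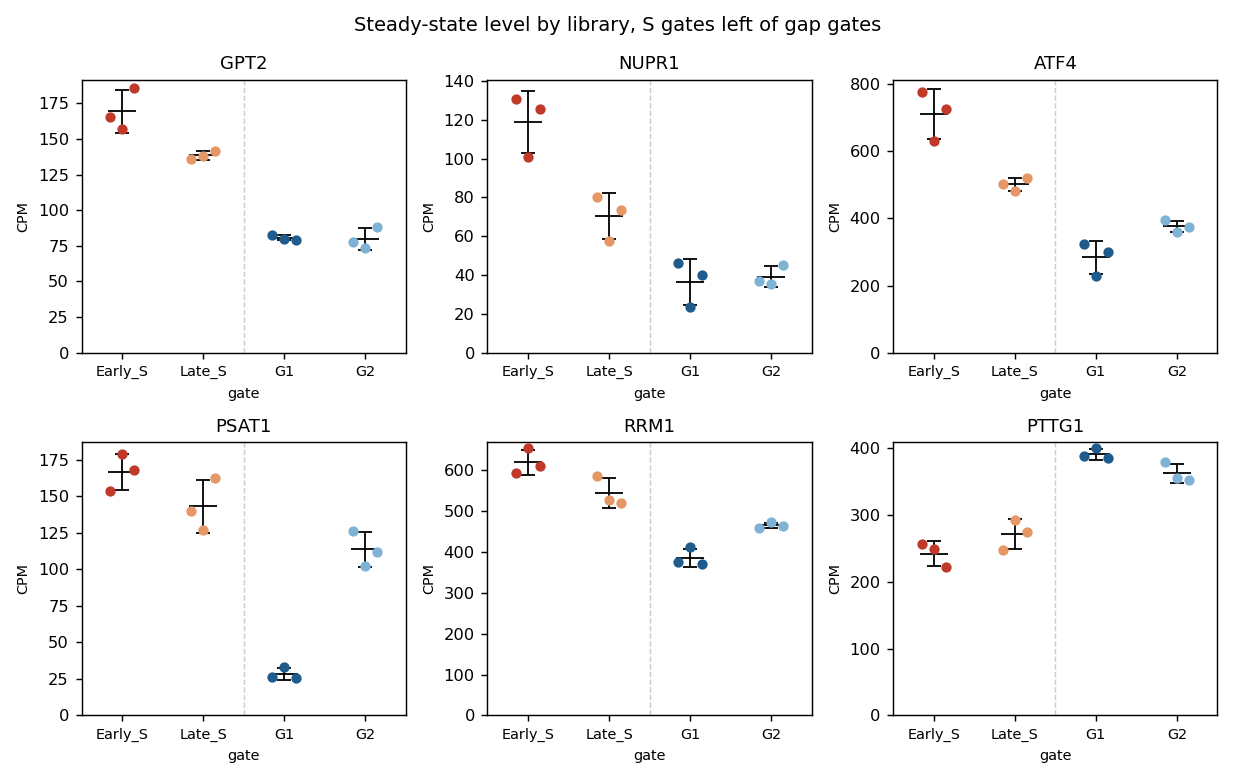
Steady-state CPM of 6 genes by gate; points are libraries, and bars are the mean ± SD of 3 libraries. GPT2, NUPR1, ATF4, PSAT1 and RRM1 lay higher in all 6 S libraries than in all 6 gap libraries and PTTG1 lower, and in PSAT1 the gap was wide against G1 and narrow against G2.

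GPT2 and NUPR1 are known targets of ATF4, the transcription factor that cells use to answer amino acid shortage and stress of the endoplasmic reticulum, and other genes of this response were higher as well. Of 24 measured genes of the ATF4 and unfolded protein response, 12 were higher in the S gates, NUPR1 among them, and 9 of the 12 in all 4 pairs. Another 1 was lower and 11 were not called, against 8.4% higher and 8.16% lower among all genes. TRIB3 (log2 difference 0.08, adjusted p = 0.786) and DDIT3 (-0.66, adjusted p = 0.248), also of this response, were not called. The median of the list was 0.15, against 0.00 for all genes tested, and its medians in the 4 pairs were 0.29 and 0.35 for Early_S against G1 and G2 and 0.19 and 0.13 for Late_S against G1 and G2. In Early_S, 10 members were called higher and 2 lower against G1, and 11 and 0 against G2. In Late_S, 10 were higher and 6 lower against G1, and 3 and 0 against G2. ATF4 itself had 775, 629.9 and 727 CPM in Early_S and 503, 481 and 519 CPM in Late_S, against 323, 228 and 299.9 CPM in G1 and 394, 359 and 375 CPM in G2. Its 6 S libraries did not overlap with its 6 gap libraries, and the difference was 0.87 ± 0.06 (adjusted p = 3.81e-14). CHAC1, which breaks down glutathione, had 33.3, 44.6 and 25.1 CPM in Early_S and 9.32, 9.92 and 5.67 CPM in Late_S, against 7.27, 9.1 and 5.3 CPM in G1 and 7.92, 5.43 and 5.37 CPM in G2. Early_S alone stood apart, Late_S overlapped with both gap gates, and the S against gap difference was 1.33 ± 0.21 (adjusted p = 9.15e-06). SLC7A11, the cystine and glutamate exchanger, had 78.8, 84.1 and 84.9 CPM in Early_S and 86.8, 90.9 and 89.3 CPM in Late_S, against 16.8, 17.4 and 20.05 CPM in G1 and 63.9, 96.01 and 68.99 CPM in G2. Here G1 alone stood apart, at 2.30 for Late_S against G1 but 0.22 for Late_S against G2, and the overall difference was 1.21 ± 0.10 (adjusted p = 2.56e-12). JDP2, a repressor of AP-1, was higher by 0.82 ± 0.12 (adjusted p = 2.49e-06). ASNS, asparagine synthetase, was higher by 0.38 ± 0.08 (adjusted p = 0.00066), with 11.3% of its reads multimapped.

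The enzymes that make serine and pass its carbon to folate were higher in 8 of 16 cases, 7 of them in all 4 pairs, and lower in none, with a list median of 0.32. Their pair medians were 0.59 and 0.37 for Early_S against G1 and G2 and 0.44 and 0.17 for Late_S against G1 and G2. PSAT1, the aminotransferase of the serine pathway, had 154, 179 and 168 CPM in Early_S and 139.7, 127 and 162 CPM in Late_S, against 26.6, 33.1 and 25.5 CPM in G1 and 126, 102 and 112 CPM in G2. Every S library lay above every gap library, but G2 lay far nearer to the S gates than G1 did. The difference was 1.44 ± 0.08 (adjusted p = 7.47e-17), made of 2.55 against G1 and 0.55 against G2 in Early_S and of 2.33 and 0.33 in Late_S. MTHFD2, the mitochondrial folate dehydrogenase, had 597, 672 and 623 CPM in Early_S and 494, 527 and 494 CPM in Late_S, against 256, 281 and 252 CPM in G1 and 419.9, 446 and 433 CPM in G2. It too showed no overlap, with a difference of 0.74 ± 0.05 (adjusted p = 8.58e-15). PSPH, the phosphatase that ends the pathway, had 54.97, 53.4 and 52.9 CPM in Early_S and 39.7, 26.7 and 34.9 CPM in Late_S, against 12.1, 18.97 and 19.01 CPM in G1 and 20.3, 18.3 and 24.8 CPM in G2. Each S library exceeded each gap library, and the difference was 1.18 ± 0.14 (adjusted p = 2.78e-08). PHGDH, which commits 3-phosphoglycerate to serine, was 289 ± 28.5 CPM in the S gates and 239 ± 26.1 CPM in the gap gates (SD, n = 6 each), a difference of 0.27 ± 0.06 (adjusted p = 0.00195). SHMT2, the mitochondrial serine hydroxymethyltransferase, differed by 0.22 ± 0.06 (adjusted p = 0.0109).

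Aminoacyl-tRNA synthetases, which load amino acids onto their tRNAs, were higher in 9 of 20 cases and lower in 2, with a list median of 0.18. CARS, the cysteine enzyme, had 209.7, 229 and 220.2 CPM in Early_S and 207, 233 and 212 CPM in Late_S, against 112, 103 and 92.4 CPM in G1 and 180.04, 208 and 186 CPM in G2. Late_S was level with Early_S and clear of G1, while G2 reached into the range of the S gates. CARS differed by 0.64 ± 0.07 (adjusted p = 1.05e-09). AARS, the alanine enzyme, had 163, 141 and 149.9 CPM in Early_S and 118, 135 and 127 CPM in Late_S, against 73.5, 65.3 and 73.7 CPM in G1 and 134, 85.6 and 88.6 CPM in G2. In G2, 1 library reached the S range, and AARS differed by 0.70 ± 0.09 (adjusted p = 1e-07). MARS, the methionine enzyme, was higher by 0.54 ± 0.07 (adjusted p = 4.09e-07), but its region lies on the opposite strand across that of DDIT3, and their reads may not be fully told apart. IARS, the isoleucine enzyme, was higher by 0.27 ± 0.07 (adjusted p = 0.0037), with 40.8% of its reads multimapped.

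ATF4 is known to act through a composite element that joins a C/EBP site to an ATF site. RefSeq promoter windows of GRCh38.p14, running from 250 bases before to 50 bases after the start of a gene, were searched for TGATGNAA on both strands. Of the members of the 3 lists above, 21 that were called higher had a window and 9 of them held the element (42.9%), against 3 of 24 not called higher (12.5%). Among all tested genes with a window, 197 of 10771 held it (1.83%), and it was found in 15 of 636 genes high in both S gates (2.36%) and in 6 of 567 genes low in both (1.06%). Its share among all genes high in both S gates was near that of all tested genes. The 40 bases around it are shown for the 5 called genes described above whose windows hold it, 5′ to 3′ on the strand of the gene, with the element in capitals; TTGCATCA is TGATGCAA read on the opposite strand.
CHAC1, chr15:40953246-40953285, plus strand: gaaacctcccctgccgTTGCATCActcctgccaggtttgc
ASNS, chr7:97872453-97872492, minus strand: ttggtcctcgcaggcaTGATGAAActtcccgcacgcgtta
AARS (AARS1), chr16:70289670-70289709, minus strand: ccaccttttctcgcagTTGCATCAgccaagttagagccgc
CARS (CARS1), chr11:3057402-3057441, minus strand: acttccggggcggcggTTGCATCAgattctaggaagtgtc
IARS (IARS1), chr9:92293687-92293726, minus strand: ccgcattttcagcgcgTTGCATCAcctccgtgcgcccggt
The element began 209 bases before the start in CHAC1, 68 before it in ASNS, 187 in AARS, 2 in CARS and 13 in IARS. In the windows of ATF4, PSAT1, PHGDH and MTHFD2 these letters were not present, and a match is a description of the sequence, not of binding. GPT2, NUPR1, PSPH, SLC7A11 and MARS had no window and were not searched.

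Of 23 measured genes that supply deoxynucleotides, 10 were higher in the replicating gates, 2 were lower and 11 were not called. All 12 that were called lay on the same side in the 4 pairs, with a list median of 0.15. RRM1, the large subunit of ribonucleotide reductase, had 594, 654 and 610.3 CPM in Early_S and 586, 526 and 519.6 CPM in Late_S, against 376, 411 and 371 CPM in G1 and 459, 473 and 464 CPM in G2. All 6 S libraries exceeded all 6 gap libraries, and the difference was 0.45 ± 0.05 (adjusted p = 4.19e-09). RRM2, its small subunit, was higher by 0.22 ± 0.05 (adjusted p = 0.00134). TYMS, which makes thymidylate, was 940.5 ± 83.9 CPM in the S gates and 766 ± 58.7 CPM in the gap gates (SD, n = 6 each), a difference of 0.30 ± 0.04 with no overlap (adjusted p = 2.16e-06). DUT, which clears dUTP, was 271 ± 27.5 CPM in the S gates and 222 ± 11.2 CPM in the gap gates (SD, n = 6 each), also with no overlap, and differed by 0.29 ± 0.06 (adjusted p = 0.000397). UMPS, the last enzyme of UMP synthesis, went the other way, with 47.04, 70.6 and 52.5 CPM in Early_S and 106, 104 and 107 CPM in Late_S, against 90.04, 110.4 and 119.8 CPM in G1 and 103, 124 and 124 CPM in G2. Only Early_S was low there, and the difference was -0.53 ± 0.09 (adjusted p = 3.98e-05).

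The replication fork list was mixed, with 6 of 34 members higher and 3 lower and a median of 0.09. PRIM1, the catalytic primase subunit, was higher by 0.50 ± 0.10 (adjusted p = 0.000379), a difference from G1 of 0.91 in Early_S and 0.95 in Late_S that was 0.06 and 0.10 from G2. RNASEH2A, the catalytic subunit of RNase H2, was 67.02 ± 8.33 CPM in the S gates and 48.3 ± 4.45 CPM in the gap gates (SD, n = 6 each), with no overlap (log2 difference 0.46 ± 0.10, adjusted p = 0.000572). PCNA, the sliding clamp, had 103, 141 and 126 CPM in Early_S and 115, 134 and 113 CPM in Late_S, against 227, 252 and 231 CPM in G1 and 133, 135 and 125 CPM in G2. It was lower in the S gates, at -0.53 ± 0.07 on the log2 scale (adjusted p = 9.55e-07), but G1 alone stood apart, and Early_S and Late_S overlapped with G2. TIPIN, of the fork protection complex, differed by -0.59 ± 0.11 (adjusted p = 0.000187), with Early_S lowest. E2F motifs (TTTCCCGC, TTTGGCGC or TTTCGCGC on either strand) were in 11 of 28 promoters of this list (39.3%), against 4.46% of all tested genes with a window.

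Origin licensing and firing genes, which load and start the replicative helicase, had 7 of 21 members lower in the S gates and none higher, with a median of -0.18. MCMBP, a partner of the MCM helicase, had 22.5, 23.4 and 21.6 CPM in Early_S and 37.02, 37.2 and 46.8 CPM in Late_S, against 47.1, 40.8 and 49.7 CPM in G1 and 36.03, 53.3 and 47.7 CPM in G2. Early_S was the low gate and Late_S overlapped with both gap gates, for a difference of -0.60 ± 0.12 (adjusted p = 0.000339). MCM5, a helicase subunit, was lower, at -0.24 ± 0.06 (adjusted p = 0.00704), yet Early_S lay above G2, at 0.28, and below G1, at -0.56. GMNN, geminin, the inhibitor of relicensing, differed by -0.54 ± 0.13 (adjusted p = 0.00246), and ORC5, of the origin recognition complex, by -0.64 ± 0.13 (adjusted p = 0.000548).

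Among 22 regulators of the G1/S transition, 8 were higher and 4 lower, with a median of -0.04. SKP2, the substrate receptor that targets p27, had 136, 149 and 136 CPM in Early_S and 155, 144 and 142 CPM in Late_S, against 79.5, 102 and 78.1 CPM in G1 and 131, 115 and 123 CPM in G2. Its S and gap libraries did not overlap, at a difference of 0.47 ± 0.08 (adjusted p = 1.25e-05). CDK2, the kinase that drives S phase, was 336 ± 41.4 CPM in the S gates and 276 ± 11.9 CPM in the gap gates (SD, n = 6 each), again with no overlap (log2 difference 0.28 ± 0.06, adjusted p = 0.000396). CDK4 was higher by 0.33 ± 0.06 (adjusted p = 8.72e-05), while CCND1, the cyclin that partners it, was lower, at -0.21 ± 0.05 on the log2 scale (adjusted p = 0.00441). Of 29 genes of the S checkpoint and repair, 3 were higher and 4 lower. MSH6, a mismatch recognition subunit, had 168, 165 and 155 CPM in Early_S and 244, 230.4 and 249.6 CPM in Late_S, against 379, 381 and 403 CPM in G1 and 232, 242 and 285 CPM in G2. Early_S was lowest and G1 highest, and MSH6 differed by -0.66 ± 0.06 (adjusted p = 2.8e-11). UNG, the uracil glycosylase, differed by -0.41 ± 0.07 (adjusted p = 6.17e-05), with -0.82 and -0.89 for Early_S and Late_S against G1 but 0.07 and 0.00 against G2.

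Of the 65 replication-dependent histone genes on the list, 35 were in the files and 26 were tested. In the S gates 10 of these were lower, 1 was higher and 15 were not called, with a median log2 difference of -0.89. The list median was -1.67 for Early_S and -1.75 for Late_S against G1, and 0.03 for Early_S and 0.06 for Late_S against G2. No tested member was called lower against G2 in either S gate, and 3 of the 10 lay on the low side in all 4 pairs. The kit primes on poly(A), and the S phase messages of these genes end in a stem-loop without a poly(A) tail, and the libraries count only their polyadenylated forms. HIST2H2BE had 22.6, 22.4 and 25.2 CPM in Early_S and 21.1, 18.00 and 26.3 CPM in Late_S, against 202, 187 and 205 CPM in G1 and 20.1, 20.1 and 26.7 CPM in G2. G1 stood far above the other 3 gates, which overlapped, and the S against gap difference of -1.56 ± 0.10 (adjusted p = 4.91e-15) had G1 alone on its far side. HIST1H2BJ and HIST1H4H were likewise highest in G1, with differences of -0.98 ± 0.07 (adjusted p = 1.03e-13) and -0.93 ± 0.10 (adjusted p = 6.53e-09). HIST1H4C was the member that was higher, with 424, 517 and 303 CPM in Early_S and 164, 204 and 153 CPM in Late_S, against 205, 212 and 202 CPM in G1 and 146, 211 and 132 CPM in G2. Early_S alone was high, and the difference was 0.55 ± 0.09 (adjusted p = 2.72e-05). ASF1B, a chaperone that hands H3 and H4 to new DNA, was 86.9 ± 9.63 CPM in the S gates and 60.3 ± 7.72 CPM in the gap gates (SD, n = 6 each), without overlap (log2 difference 0.52 ± 0.09, adjusted p = 2.43e-05). SLBP, which binds the histone stem-loop, was lower, at -0.53 ± 0.13 on the log2 scale (adjusted p = 0.00302). Of 12 replacement histones, 5 were higher and 3 lower. H2AFY2, a macroH2A, was 24.8 ± 2.77 CPM in the S gates and 14.3 ± 2.87 CPM in the gap gates (SD, n = 6 each), with no overlap and a difference of 0.80 ± 0.16 (adjusted p = 0.000249). H1F0, a linker histone, was lower, at -0.68 ± 0.06 on the log2 scale (adjusted p = 1.8e-12), with G1 alone above the S gates.

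Many mitotic genes were higher in the mean of the S gates but not higher than in G2. Of 27 G2/M regulators, 10 were higher and 2 lower, and of 30 spindle and kinesin genes, 8 were higher and 1 lower. The G2/M medians were 0.54 for Early_S and 1.14 for Late_S against G1, but -0.74 for Early_S and -0.39 for Late_S against G2, and the spindle medians were 0.63, 1.24, -0.89 and -0.31 in the same order. TOP2A, the topoisomerase that untangles sister chromatids, had 91.9, 108 and 81.3 CPM in Early_S and 172, 199.9 and 168 CPM in Late_S, against 33.9, 44.6 and 26.96 CPM in G1 and 220.4, 214 and 187 CPM in G2. Both S gates lay above G1 and none of their means above G2, and the S against gap difference was 0.61 ± 0.09 (adjusted p = 2.8e-06), made of 1.41 and 2.36 for Early_S and Late_S against G1 and -1.14 and -0.20 against G2. AURKB and NUSAP1, which act at centromeres and on spindle microtubules, showed the same order, with differences of 0.46 ± 0.07 (adjusted p = 4.64e-06) and 0.53 ± 0.06 (adjusted p = 3.81e-08). KIF20A, a kinesin of cytokinesis, was lower in the S gates, at -0.39 ± 0.10 on the log2 scale (adjusted p = 0.00299), with Early_S at -0.25 against G1 and -1.42 against G2.

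Tubulin and actin genes were higher in 10 of 14 cases and lower in none, and 6 of them were high in both S gates. TUBB had 7309, 7606 and 6834 CPM in Early_S and 6796, 6523 and 6705 CPM in Late_S, against 3216, 3469.9 and 3199 CPM in G1 and 6552, 5354 and 5727 CPM in G2. It differed by 0.66 ± 0.03 (adjusted p = 4.62e-18), with 21.3% of its reads multimapped. G1 was far below the S gates and G2 close to them, at 1.14 and 0.30 for Early_S, and 1 G2 library lay within the S range. TUBA1B had 6506 ± 499 CPM in the S gates and 4796 ± 1182 CPM in the gap gates (SD, n = 6 each), a difference of 0.47 ± 0.03 (adjusted p = 2.37e-15). STMN1, which destabilises microtubules, had 1156, 1196 and 1174 CPM in Early_S and 1025, 1127 and 1055 CPM in Late_S, against 815, 912 and 832 CPM in G1 and 966, 929 and 989 CPM in G2. All of its S libraries were above all of its gap libraries, with a difference of 0.31 ± 0.04 (adjusted p = 5.07e-07).

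Ribosome biogenesis genes, which make and assemble ribosomal RNA in the nucleolus, were lower in 16 of 28 cases and higher in none, with a median of -0.30. The difference was wider in Early_S, with pair medians of -0.49 against G1 and -0.41 against G2, where Late_S had -0.14 and -0.04. RRP1B, a nucleolar processing factor, had 55.02, 68.1 and 51.9 CPM in Early_S and 129, 146 and 121 CPM in Late_S, against 148, 143 and 141 CPM in G1 and 123, 153 and 131 CPM in G2. Late_S overlapped with both gap gates and Early_S lay far below them, for a difference of -0.67 ± 0.08 (adjusted p = 3.22e-08). NCL, nucleolin, had 596, 633 and 618 CPM in Early_S and 777, 781 and 762 CPM in Late_S, against 956, 952 and 936 CPM in G1 and 789, 794 and 821 CPM in G2. Its S libraries all lay below its gap libraries (log2 difference -0.34 ± 0.04, adjusted p = 7.47e-08). NOP58, a core protein of methylating snoRNPs, differed by -0.41 ± 0.06 (adjusted p = 8.52e-06). Cytosolic ribosomal protein genes had 11 of 77 members higher and none lower, with a median of 0.06, against 8.4% higher and 8.16% lower among all genes. Only 4 were high in both S gates. The pairs ran apart: 65 members were called higher and 0 lower in Early_S against G2, while 22 were called lower and 0 higher in Late_S against G1.

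Splicing factors had 7 of 28 members lower and 1 higher, heat shock proteins 6 of 14 lower and 1 higher, and cholesterol synthesis enzymes 4 of 19 lower and 2 higher. HMGCS1, the cytosolic HMG-CoA synthase, had 246, 278 and 265 CPM in Early_S and 392, 397 and 413 CPM in Late_S, against 599, 616 and 577 CPM in G1 and 451, 458 and 449.6 CPM in G2. Each S library lay below each gap library, with Early_S lowest, and the difference was -0.68 ± 0.05 (adjusted p = 7.3e-14). NSDHL, a later step of the same pathway, was 63.7 ± 9.89 CPM in the S gates and 89.6 ± 4.03 CPM in the gap gates (SD, n = 6 each), also without overlap (log2 difference -0.50 ± 0.09, adjusted p = 8.86e-05). HSPA4, a nucleotide exchange factor of HSP70, was 228 ± 19.4 CPM in the S gates and 300.5 ± 33.1 CPM in the gap gates (SD, n = 6 each), without overlap (log2 difference -0.39 ± 0.06, adjusted p = 2.36e-06). HNRNPF, a splicing regulator, differed by -0.42 ± 0.05 (adjusted p = 3.38e-08), and SRSF1 by -0.38 ± 0.06 (adjusted p = 5.46e-06).

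Glycolysis and hypoxia genes were higher in 9 of 24 cases and lower in 3, and respiratory chain genes higher in 6 of 27 and lower in none. Proteasome subunits were higher in 2 of 25 and lower in 1, not above the shares among all genes (8.4% higher and 8.16% lower). In Early_S against G2, 18 respiratory chain genes were called higher and 0 lower, while in Late_S against G1 1 was higher and 5 were lower. ENO1, enolase, had 4428, 4593 and 4545 CPM in Early_S and 4049, 3933 and 4077 CPM in Late_S, against 3487, 3267 and 3467 CPM in G1 and 3902, 3624 and 3822 CPM in G2. Its S libraries all lay above its gap libraries by a small margin, 0.25 ± 0.03 on the log2 scale (adjusted p = 4.4e-08). GAPDH differed by 0.17 ± 0.03 (adjusted p = 3.76e-05), with 0.06 and 0.03 for Late_S against G1 and G2. HK2, which starts glycolysis, was lower, at -0.81 ± 0.17 on the log2 scale (adjusted p = 0.000553), with 28.7% of its reads multimapped.

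Among 26 immediate early genes, 8 were lower in the S gates, 2 were higher and 16 were not called, and among 24 p53 targets 8 were lower, none was higher and 16 were not called. The lists ran differently against the 2 gap gates. The median of the immediate early genes was -0.57 for Early_S and -1.52 for Late_S against G1, and 0.66 for Early_S and -0.08 for Late_S against G2. For the p53 targets these medians were -0.49 and -0.89 against G1, and 0.40 and 0.09 against G2. In Early_S against G2, 16 immediate early genes and 9 p53 targets were higher and none was lower. Of the 8 lower members, 1 in each list lay on the low side in all 4 pairs. JUN, a subunit of AP-1, had 124, 111 and 133 CPM in Early_S and 105, 101 and 116 CPM in Late_S, against 235, 257 and 263 CPM in G1 and 95.6, 77.4 and 93.03 CPM in G2. G1 was highest, G2 lowest and both S gates between them, and the difference was -0.38 ± 0.07 (adjusted p = 0.000187). NR4A1, an orphan nuclear receptor, had 32.6, 37.5 and 30.4 CPM in Early_S and 13.7, 19.3 and 19.2 CPM in Late_S, against 9.92, 16.2 and 10.5 CPM in G1 and 10.9, 12.01 and 7.97 CPM in G2. It was higher in the S gates by 1.10 ± 0.17 (adjusted p = 1.07e-05), with Early_S highest. MDM2, the ligase that degrades p53 and is itself a p53 target, differed by -0.43 ± 0.09 (adjusted p = 0.000646), with Early_S against G2 at 0.32 and Late_S against G2 at -0.01. THBS1, thrombospondin 1, was lower, at -0.60 ± 0.06 on the log2 scale (adjusted p = 8.55e-11), one of 8 extracellular matrix genes of 23 that were lower, against 2 that were higher. Of 4 measured metallothioneins, which bind zinc and copper, 2 were higher. MT1E had 1851, 1881 and 1851 CPM in Early_S and 1886, 2074 and 1820.0 CPM in Late_S, against 983, 1045 and 1023 CPM in G1 and 1663, 1629 and 1702 CPM in G2. MT2A was 8381 ± 170.4 CPM in the S gates and 7399.8 ± 219.6 CPM in the gap gates (SD, n = 6 each). Neither had any overlap between S and gap libraries. Their differences were 0.54 ± 0.04 (adjusted p = 1.66e-14) and 0.18 ± 0.03 (adjusted p = 1.51e-06), and MT2A was even across the 4 pairs, from 0.16 to 0.20.

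**Figure D4:**
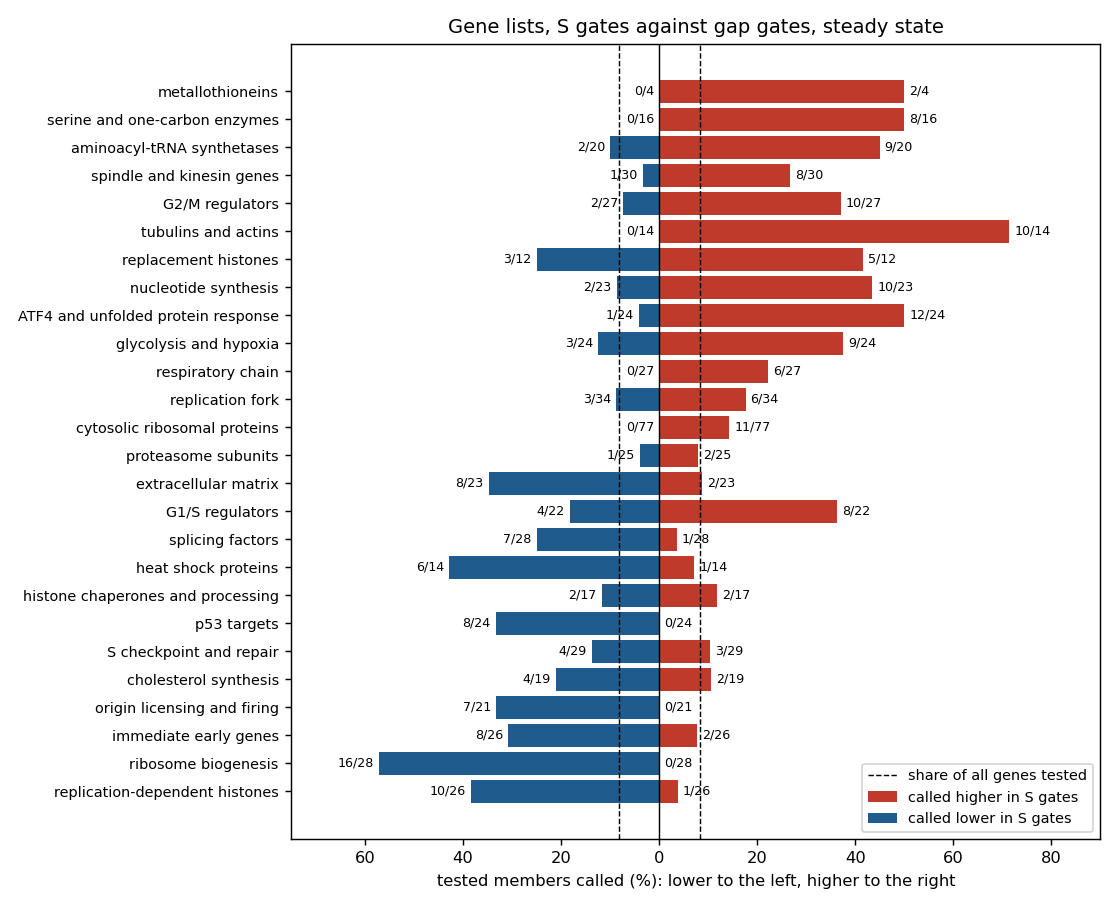
For each gene list, the percent of tested members called higher (red) and lower (blue) in the S gates at steady state; dashed lines mark the percent over all genes tested, 8.4% higher and 8.16% lower. Tubulins and actins (10 of 14), serine enzymes (8 of 16) and the ATF4 list (12 of 24) lay well above the line on the high side, and ribosome biogenesis (16 of 28), heat shock proteins (6 of 14) and replication-dependent histones (10 of 26) on the low side.

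Beyond these lists, called genes whose S and gap libraries did not overlap were ranked by the smallest of their 4 pairwise differences, a rule chosen after values had been seen, and those at the top were of low abundance. NTN1, the axon guidance ligand netrin 1, had 15.01, 8.16 and 20.2 CPM in Early_S and 15.4, 11.8 and 11.3 CPM in Late_S, against 6.54, 4.33 and 6.91 CPM in G1 and 4.64, 3.5 and 7.33 CPM in G2. The 4 pairs were alike, from 1.11 to 1.48, and the difference was 1.30 ± 0.25 (adjusted p = 0.000215). BTN2A2, a butyrophilin, was 7.65 ± 1.28 CPM in the S gates and 2.21 ± 1.31 CPM in the gap gates (SD, n = 6 each), a difference of 1.89 ± 0.38 (adjusted p = 0.000355). ARHGAP28 was 9.81 ± 1.62 CPM in the S gates and 2.76 ± 2.13 CPM in the gap gates (SD, n = 6 each), a difference of 2.24 ± 0.32 (adjusted p = 1.42e-06). On the low side, ANTXR2, an anthrax toxin receptor, had 9.63, 2.87 and 4.69 CPM in Early_S and 16.7, 18.4 and 20.2 CPM in Late_S, against 45.95, 50.8 and 44.6 CPM in G1 and 35.2, 26.2 and 25.6 CPM in G2. Early_S was lowest and Late_S second lowest, and the difference was -1.84 ± 0.18 (adjusted p = 2.98e-10). CLCN2, a chloride channel, was 2.21 ± 0.682 CPM in the S gates and 6.45 ± 2.44 CPM in the gap gates (SD, n = 6 each), a difference of -1.54 ± 0.36 (adjusted p = 0.00194). SLFN12, a Schlafen family protein, was 10.2 ± 3.12 CPM in the S gates and 19.4 ± 4.03 CPM in the gap gates (SD, n = 6 each), a difference of -0.98 ± 0.19 (adjusted p = 0.000209). EBAG9 was 20.5 ± 3.6 CPM in the S gates and 34.8 ± 7.67 CPM in the gap gates (SD, n = 6 each), a difference of -0.76 ± 0.15 (adjusted p = 0.000241).

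The nascent level, from T>C reads alone, gave fewer calls. Of 11474 genes tested, 298 were called (2.6%), 226 higher in the S gates (1.97%) and 72 lower (0.628%), and 128 were high in both S gates (1.12%) and 51 low in both (0.444%). These counts depend on the scale. With T>C reads scaled by all reads of the library, 125 genes were higher and 339 lower, and the median of all genes moved to -0.17. Scaling by T>C reads therefore sets a gene against the bulk of new RNA, and the directions below are relative to that bulk. No gene passed in all 4 pairs by the stricter definition in edgeR or in DESeq2, while 40 were high and 12 low at an unadjusted p under 0.05 in each pair (0.349% and 0.105%).

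New reads of the ATF4 list were higher in 10 of 23 cases and lower in none, serine enzymes in 4 of 15 and aminoacyl-tRNA synthetases in 3 of 20. ATF4 had 1267, 1093 and 1179 CPM in Early_S and 789, 853 and 954 CPM in Late_S, against 722, 541 and 665 CPM in G1 and 942, 806 and 812 CPM in G2 of new reads. Early_S was above all other libraries, Late_S overlapped with G2, and the difference was 0.45 ± 0.08 (adjusted p = 0.000992). Scaled by all reads it was 0.27 and was not called. PHGDH had 114, 136 and 106 CPM in Early_S and 69.5, 52.3 and 70.2 CPM in Late_S, against 42.96, 18.4 and 32.5 CPM in G1 and 46.2, 46.4 and 47.6 CPM in G2. Every S library was above every gap library, at a difference of 1.19 ± 0.23 (adjusted p = 0.0027). MTHFD2 had 1066, 1262 and 1190.1 CPM in Early_S and 704, 714 and 874 CPM in Late_S, against 511, 587 and 458 CPM in G1 and 589.8, 629 and 697 CPM in G2. It had no overlap either and differed by 0.72 ± 0.08 (adjusted p = 3.05e-06). In XBP1, a factor of the unfolded protein response, G1 alone was low and the difference was 0.73 ± 0.11 (adjusted p = 0.000179). ASNS differed by 1.70 ± 0.30 (adjusted p = 0.000905), CHAC1 by 1.66 ± 0.32 (adjusted p = 0.00195) and CARS by 1.21 ± 0.22 (adjusted p = 0.000963). GPT2, which passed in all 4 pairs at steady state, had new reads of 73.2, 129 and 103 CPM in Early_S and 30.3, 53.3 and 16.3 CPM in Late_S, against 83.1, 58.01 and 76.5 CPM in G1 and 31.4, 87.1 and 28.5 CPM in G2. These overlapped (log2 difference -0.03 ± 0.29, adjusted p = 0.983).

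Of nascent levels without overlap, 40 were called higher (0.349%) and 13 lower (0.113%), and the same ranking of these named genes outside the lists. APOL6, of the apolipoprotein L family, had 107, 85.2 and 72.3 CPM in Early_S and 33.6, 58.8 and 88.3 CPM in Late_S, against 21.2, 7.92 and 9.26 CPM in G1 and 20.9, 17.5 and 16.02 CPM in G2 of new reads. It differed by 2.25 ± 0.32 (adjusted p = 4.42e-05). HIVEP3, a zinc finger protein, had 71.4, 112 and 117 CPM in Early_S and 66.2, 65.3 and 40.4 CPM in Late_S, against 20.1, 32.5 and 9.74 CPM in G1 and 11.6, 19.2 and 29.4 CPM in G2. Its difference was 1.89 ± 0.31 (adjusted p = 0.000361). In both genes the lowest S library was above the highest gap library. TBX3, a T-box repressor, was 155 ± 25.8 CPM in the S gates and 279 ± 43.6 CPM in the gap gates (SD, n = 6 each) of new reads, a difference of -0.85 ± 0.13 (adjusted p = 0.000142). DNMT1, which copies DNA methylation to the new strand, was 134 ± 25.3 CPM in the S gates and 209.9 ± 29.96 CPM in the gap gates (SD, n = 6 each), a difference of -0.65 ± 0.15 (adjusted p = 0.014). GEMIN5, of the SMN complex, was lower, at -1.03 ± 0.22 on the log2 scale (adjusted p = 0.00553).

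Among mitotic genes, 10 of 27 G2/M regulators and 7 of 30 spindle and kinesin genes had higher nascent levels in the S gates and none lower. CCNB1 had 551, 547 and 730.00 CPM in Early_S and 932, 925 and 769.8 CPM in Late_S, against 138, 177 and 209.9 CPM in G1 and 1132, 1054 and 1059 CPM in G2 of new reads. The S gates were again between G1 and G2, and the difference was 0.75 ± 0.10 (adjusted p = 1.56e-05). KIF20A had 102, 85.5 and 86.9 CPM in Early_S and 203, 188 and 165 CPM in Late_S, against 18.6, 14.1 and 11.6 CPM in G1 and 175, 119 and 224 CPM in G2. Late_S and G2 overlapped, and KIF20A differed by 1.36 ± 0.18 (adjusted p = 2.26e-05). PTTG1, lower at steady state, was higher in new reads by 0.56 ± 0.12 (adjusted p = 0.00458), with 235, 241 and 221 CPM in Early_S and 260.2, 247 and 269.9 CPM in Late_S, against 86.6, 83.6 and 84.5 CPM in G1 and 374, 299 and 310.2 CPM in G2. Its S libraries lay between G1 and G2, and scaled by all reads its difference was 0.38 and was not called. The cell cycle genes homology region, CHR (TTTGAA on either strand), an element of promoters active in G2 and mitosis, was in 33 of 172 promoters of nascent genes higher in the S gates (19.2%), in 13 of 22 of the G2/M list (59.1%) and in 9.80% of all tested genes with a window. It is shown for the 4 of 8 G2/M regulators with a higher nascent level and a window in which it was found, with the element in capitals; TTCAAA is TTTGAA read on the opposite strand.
CCNB2, chr15:59105100-59105139, plus strand: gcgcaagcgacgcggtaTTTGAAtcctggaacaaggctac
PLK1, chr16:23678843-23678882, plus strand: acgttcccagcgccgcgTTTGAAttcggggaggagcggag
CCNF, chr16:2429345-2429384, plus strand: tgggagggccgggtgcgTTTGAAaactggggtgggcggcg
CKS2, chr9:89311149-89311188, plus strand: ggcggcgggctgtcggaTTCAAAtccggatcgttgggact
The nascent differences of CCNB2, a B-type cyclin, and of PLK1, the polo kinase, were 0.86 ± 0.14 (adjusted p = 0.000267) and 0.59 ± 0.11 (adjusted p = 0.00195), while those of CCNF and CKS2 were 0.40 and 0.48. In CCNB2, PLK1 and CKS2 the element began 29 bases before the start of the gene, and in CCNF 85 bases before it.

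Fork, licensing and replication-dependent histone genes had no member with a higher nascent level except HIST1H4C, and 2 of 34, 2 of 20 and 5 of 21 of them were lower. Among all genes 1.97% were higher and 0.628% lower, so few higher members would be found in lists of this size at that share. Of 12 replacement histones, 2 had a higher nascent level and 1 a lower one. DUT, higher at steady state, had new reads of 137, 128 and 123 CPM in Early_S and 66.2, 73.4 and 56.7 CPM in Late_S, against 195, 239 and 206 CPM in G1 and 191, 124 and 139.8 CPM in G2. Late_S was the lowest gate and lay below both gap gates, and DUT differed by -0.97 ± 0.16 (adjusted p = 0.000261). PCNA was lower in new reads, at -0.72 ± 0.13 on the log2 scale (adjusted p = 0.00102), as it was at steady state. TIMP1, an inhibitor of metalloproteases, was higher in new reads by 1.21 ± 0.12 (adjusted p = 1.53e-07) and lower at steady state, at -0.32 ± 0.05 on the log2 scale (adjusted p = 2.88e-06). Its new reads were 848, 975 and 928 CPM in Early_S and 176, 154 and 189.5 CPM in Late_S, against 184, 171 and 149 CPM in G1 and 174, 224 and 134 CPM in G2. Early_S alone was high.

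The labelled share asks what part of the reads of a gene were new. It differed in 378 of 11474 genes (3.29%), 282 higher in the S gates (2.46%) and 96 lower (0.837%). Because the share over all genes differs between gates, the tested ratio is taken against the overall share of each gate, and the percentages printed are not corrected for it. KIF20A had labelled shares of 51.4, 42.97 and 41.8% in Early_S and 26.04, 30.7 and 23.2% in Late_S, against 9.53, 6.32 and 7.13% in G1 and 19.6, 10.3 and 21.7% in G2. All 6 S libraries were above all 6 gap libraries, with a log2 difference of 2.26 ± 0.22 (adjusted p = 2.61e-08). PTTG1 had shares of 17.8, 17.2 and 18.7% in Early_S and 10.3, 8.55 and 9.71% in Late_S, against 5.34, 4.49 and 5.33% in G1 and 9.8, 7.77 and 9.0% in G2. G1 was lowest, and PTTG1 differed by 1.25 ± 0.11 (adjusted p = 7.66e-09). Altogether 10 of 27 G2/M regulators had a higher labelled share and none a lower one, and so did 5 of 30 spindle and kinesin genes.

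Nucleotide synthesis ran the other way, with 4 of 23 members lower in labelled share and 1 higher. DUT had shares of 9.3, 7.14 and 8.36% in Early_S and 2.62, 2.93 and 2.26% in Late_S, against 22.6, 22.2 and 23.7% in G1 and 8.31, 5.19 and 6.12% in G2. Late_S was lowest and G1 highest, and the difference was -1.37 ± 0.14 (adjusted p = 9.16e-08). RRM1 had shares of 7.75, 8.05 and 6.87% in Early_S and 3.87, 3.09 and 3.22% in Late_S, against 18.7, 18.5 and 17.9% in G1 and 4.81, 3.67 and 3.87% in G2. G1 was again highest, at a difference of -0.68 ± 0.13 (adjusted p = 0.00117), and TYMS differed by -0.51 ± 0.10 (adjusted p = 0.00144). RRM1, TYMS and DUT thus had more reads in the mean of the S gates, while the tested ratio of new to other reads was lower there. The printed percentages, which are not corrected for the overall share (18.4% in Early_S and 10.1% in G2), did not show this against each gap gate. The Early_S shares of RRM1 lay above its G2 shares, and those of DUT overlapped with G2. In the tested ratio, the median of the nucleotide synthesis list was -0.41 for Early_S against G2, with 4 members called higher there and 1 lower. ATF4 also had a lower share, at -0.70 ± 0.12 on the log2 scale (adjusted p = 0.000251), and so did TUBB, at -0.92 ± 0.07 (adjusted p = 5.53e-10). TIMP1 had shares of 25.1, 24.97 and 24.5% in Early_S and 3.19, 2.63 and 3.53% in Late_S, against 3.95, 3.91 and 3.54% in G1 and 3.0, 3.62 and 2.36% in G2. Early_S stood apart from the other 3 gates, and TIMP1 differed by 1.74 ± 0.12 (adjusted p = 3.73e-11). ASNS had a higher share by 1.40 ± 0.27 (adjusted p = 0.00153) and SLC2A1, a glucose transporter, by 1.02 ± 0.20 (adjusted p = 0.00156). NOP2, a nucleolar methyltransferase and one of 3 ribosome biogenesis genes of 28 with a higher share, had 74.8, 71.01 and 71.97% in Early_S and 30.3, 33.2 and 31.8% in Late_S, against 56.2, 59.5 and 57.8% in G1 and 31.7, 29.2 and 33.4% in G2. Early_S stood above the other gates, at a difference of 0.67 ± 0.13 (adjusted p = 0.00143). BCL2A1, an inhibitor of apoptosis, had 77.97, 73.3 and 60.5% in Early_S and 7.18, 10.1 and 3.79% in Late_S, against 37.6, 26.2 and 15.1% in G1 and 0, 0 and 0.935% in G2. In G2, 2 of its libraries had no T>C read, so no fold is given for it.

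**Figure D5:**
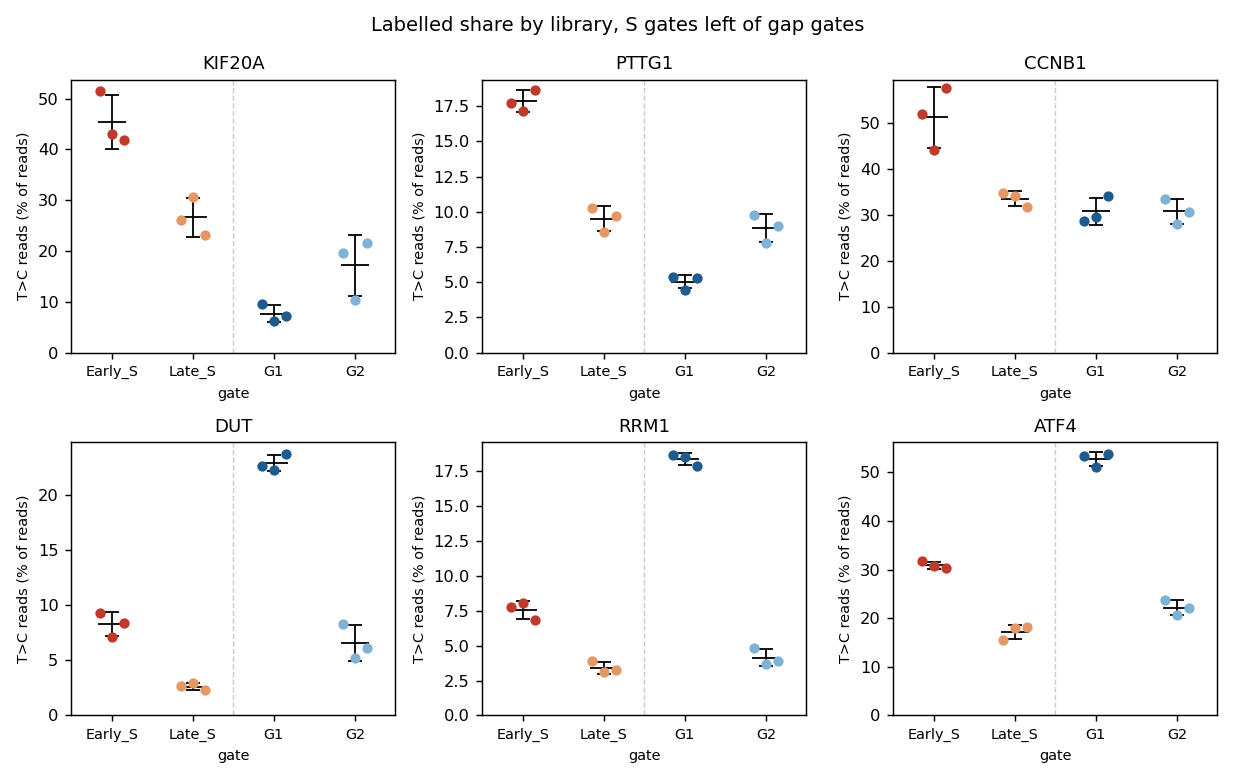
Percent of the reads of a gene that carried a T-to-C conversion, by gate, for KIF20A, PTTG1, CCNB1, DUT, RRM1 and ATF4; points are libraries, and bars are the mean ± SD of 3 libraries. KIF20A was higher in all 6 S libraries than in all 6 gap libraries, and the printed percentages of DUT, RRM1 and ATF4 were highest in G1. These percentages are not corrected for the overall share, which was itself highest in G1 (22.3%, against 18.4% in Early_S, 10.0% in Late_S and 10.1% in G2).

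Whether the S to gap difference was the same in both neighbouring pairs was tested as the difference between Early_S against G1 and Late_S against G2. At steady state 1449 genes differed between the pairs (10.5%), and 861 of the 2277 genes called between S and gap gates were among them. In 742 genes (5.39%) the signed difference was higher in Early_S against G1 than in Late_S against G2, and in 707 (5.14%) it was lower. The sign does not say which pair had the larger change. Of the 1542 genes high or low in both S gates, 390 differed between the pairs. PSAT1 differed by 2.22 ± 0.17 (adjusted p = 2.33e-13), ATF4 by 0.91 ± 0.12 (adjusted p = 6.76e-07) and RRM1 by 0.46 ± 0.10 (adjusted p = 0.00118). GPT2 differed by 0.28 ± 0.15 (adjusted p = 0.256) and MT2A by 0.04 ± 0.05 (adjusted p = 0.726), which did not pass the threshold. In bulk libraries such as these, fewer cells expressing a gene and less RNA per cell cannot be told apart.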

How the data were processed

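Each deposited table came from slamdunk 0.2.4 on hg38, per the submitters' processing notes and the file headers, and held 68625 3' end regions with all reads, T>C reads, a conversion rate and a multimapped count; the region annotation is labelled as Ensembl release 90. The counts of reads and of T>C reads were used as the authors deposited them, summed over 19531 gene names. The conversion rate is a fraction in the deposited tables and is printed here as a percent, and CPM values were computed from the counts rather than taken from the authors' CPM column. Of the names, 17926 were current symbols and 731 older ones. A further 481 joined several genes, held 2.17% of reads and were not named. Coordinates in brackets are those of the region with most reads.

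Genes were tested with edgeR 4.0.16 (quasi-likelihood test, TMM, filterByExpr with a minimum count of 10 and total of 15) in R 4.3.3, with the 4 gates as factor levels, S minus gap as the contrast and Benjamini-Hochberg adjustment over all genes. SE is the log2 difference divided by the root of F. The labelled share was tested in a joint model of T>C and remaining reads, with a mean for each gate and kind of read. It had no term for library, so the T>C and remaining reads of a library were not paired. With a term for each library, 252 genes had a higher share and 87 a lower one. Library measures were compared by two-sided exact permutation tests in Python 3.11.15 with scipy 1.17.1; 4 were compared. DESeq2 1.42.0, RLE size factors, library totals, no filter, leaving out multimapped or background-prone genes, a replicate block and leaving out each library were alternatives. On simulated counts for 13755 genes at steady state, 41% of changes of 0.5 on the log2 scale and 67% of changes of 1 were recovered, with 9 false calls, and on simulated nascent counts for 11474 genes, 4% and 42%, with 3 false calls. For the labelled share of those 11474 genes 1% and 25% were recovered, with 4 false calls. The stricter definition recovered 8% and 44% at steady state and 0% and 12% in nascent level, with 0 false calls, so few genes passing it is no measure of how many differ. The simulated gates differed only in the changed genes, whereas in these data G1 and G2 also differ from each other.

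The gates, gene lists and tests were chosen with earlier results of these data known. Genes named came from those passing all 4 pairs, up to 4 per list by smallest p, a fixed set and, after values were seen, non-overlapping genes ranked by their smallest pairwise difference. Some further names (the genes of the promoter windows among them) were also chosen after their values were seen, and a gene that lost its call without 1 of the libraries is given no account of its own in the report; RPL3L, ITGAM and PPM1E, which did, appear only among the widest interactions of the closing section. Replicate libraries of a gate differed beyond counting noise in every pair, so none was merged. Counting noise covers counting error only, whereas the SE and SD values given here also hold the spread between libraries.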

Additional observations from a re-analysis of the deposited data

Results flagged for a closer look

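The difference between Early_S against G1 and Late_S against G2, tested as an interaction, passed at steady state in 742 genes on the positive side and 707 on the negative side, so these genes did not differ from their gap gate by the same amount in both pairs. KRT75, a keratin, had 4.04, 2.42 and 2.66 CPM in Early_S and 4.12, 3.2 and 1.33 CPM in Late_S, against 55.5, 62.4 and 62.8 CPM in G1 and 1.64, 1.88 and 1.59 CPM in G2. G1 alone was high, and the interaction was -5.04 ± 0.44 on the log2 scale (edgeR's quasi-likelihood test, adjusted p = 2.06e-11). ESM1, a secreted proteoglycan, had 13.7, 14.4 and 11.8 CPM in Early_S and 60.8, 63.1 and 64.9 CPM in Late_S, against 160.1, 143 and 155 CPM in G1 and 60.6, 57.7 and 54.1 CPM in G2. Early_S was low and G1 high, and the interaction was -3.65 ± 0.18 (adjusted p = 1.57e-18).

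The interaction was also among the widest in RPL3L (-10.30), ITGAM (7.46) and PPM1E (3.51), which had few reads. RPL3L was at 0 in all 3 Early_S libraries and at 5.64, 4.39 and 6.68 CPM in G1, and ITGAM was at 0 in 2 of the 3 G1 libraries, so these fitted values depend on the prior count and are no bounds. PPM1E had 4.59, 6.81 and 3.17 CPM in Early_S and 2.11, 2.75 and 2.42 CPM in Late_S, against 0.395, 0 and 0.806 CPM in G1 and 1.8, 3.5 and 1.59 CPM in G2. Their S against gap calls ended in 1, 2 and 3 of the fits that left out a library, in the order RPL3L, ITGAM and PPM1E.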

How the results depend on the processing

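Counts of calls moved with the model. The stricter definition left 6 genes high at steady state in DESeq2, 7 with no filter and 7 with the replicate block. With 2 groups and no phase term, 77 genes were higher and 38 lower at steady state and 11 and 1 in nascent level. Nascent counts were 360 higher and 172 lower in DESeq2 (210 and 130 in all 4 pairs), 123 lower with no filter (85 in all 4 pairs) and 125 higher and 339 lower scaled by all reads (47 higher in all 4 pairs). Leaving out each library gave 942 to 1072 higher and 899 to 1059 lower at steady state, 701 to 802 and 562 to 653 of them in all 4 pairs, and 1 to 5 and 0 to 1 by the stricter definition. The interaction then gave 571 to 687 positive and 556 to 740 negative genes. Nascent counts ran over 163 to 247 higher and 41 to 83 lower (94 to 153 and 26 to 62 in all 4 pairs), and labelled shares over 201 to 315 and 61 to 109. The T>C share difference ran from -3.28 to -0.675 points and the conversion rate difference from -0.216 to 0.0584. Without a phase term, ATF3 reversed to -0.12 and CCNB2 to -0.072 at steady state and GPT2 to 0.16 in nascent level. Leaving out 1 library took 5 values that were not called across 0, with ranges of -0.301 to 0.32 for nascent GPT2 and, at steady state, -0.109 to 0.00863 for PLK1, -0.0691 to 0.00548 for CCNA2, -0.246 to 0.26 for CCNE2 and -0.0171 to 0.199 for TRIB3. The cause of these moves was not tested. Library totals in place of TMM gave 967 higher and 1289 lower.

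Any pairing of libraries by replicate number was weak: 18 correlations of same-numbered deviations ran from -0.0124 to 0.0424. Even so, 10 of 12 libraries had a higher mean correlation with their own number than with the other numbers, so a weak pairing is not excluded. With the replicate block, 1244 genes were higher and 1178 lower at steady state, 235 and 76 in nascent level and 303 and 103 in labelled share, and 835 and 792 in the interaction. The T>C share and conversion rate gave exact permutation p = 0.583 and 0.657 within replicate number.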
